A study of Mus musculus with 2 samples.

Results

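The Polycomb group genes considered here were Bmi1, Ezh1, Ezh2, Eed, Suz12, Cbx2, Cbx7, Cbx8 and Ring1, 9 genes taken by name from a table of 16881 RefSeq transcripts. Each had 1 row in the table. The rule that picked them used no expression value, though they were chosen with earlier results of these data known. Their RNA was compared between 1 culture of p65-/- and 1 culture of p65+/+ mouse embryonic fibroblasts (MEFs), both immortalised and of strain C57BL/6, with no treatment or stimulus named. p65, the product of Rela, is a transactivating subunit of NF-kB, and the design asks which genes differ in its presence and absence. The sources used here do not give how the cells were immortalised or how many embryos or clones each culture came from. With 1 library per genotype no difference had a replicate check, no p-value is given, and intervals cover counting error only.

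Polycomb proteins keep developmental genes silent once a cell has taken its identity. Polycomb repressive complex 2 (PRC2) methylates lysine 27 of histone H3 through Ezh2 or its relative Ezh1, and needs Eed and Suz12 to do so. Polycomb repressive complex 1 (PRC1) ubiquitinates histone H2A through Ring1 or Rnf2 paired with a Pcgf protein such as Bmi1, and in its canonical form a Cbx protein docks it on the methylated histone. In mouse fibroblasts both complexes are known for holding down Hox genes and the Cdkn2a locus, and loss of Bmi1 is known to release Cdkn2a and to arrest growth.

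The starts of the genes that lay farthest apart between the cultures, and of the paralogous methyltransferases, are shown because the members shared CpG-rich promoters while their transcripts differed in base composition. Each line gives the 250 bases before the start used in a RefSeq promoter set (GRCm38.p6), 5′ to 3′ in the direction of the gene, with every CG dinucleotide in capitals. For Ezh2 that start lies inside the span of the gene used here (47530274 to 47595270), so most of its window lies within the gene.
Suz12, chr11:79992856-79993105, plus strand: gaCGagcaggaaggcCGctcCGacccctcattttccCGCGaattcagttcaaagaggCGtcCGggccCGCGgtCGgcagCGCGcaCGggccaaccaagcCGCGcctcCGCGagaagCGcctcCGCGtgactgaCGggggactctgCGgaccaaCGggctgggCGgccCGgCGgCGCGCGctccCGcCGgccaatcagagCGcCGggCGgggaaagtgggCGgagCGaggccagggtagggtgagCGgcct
Bmi1, chr2:18676768-18677017, plus strand: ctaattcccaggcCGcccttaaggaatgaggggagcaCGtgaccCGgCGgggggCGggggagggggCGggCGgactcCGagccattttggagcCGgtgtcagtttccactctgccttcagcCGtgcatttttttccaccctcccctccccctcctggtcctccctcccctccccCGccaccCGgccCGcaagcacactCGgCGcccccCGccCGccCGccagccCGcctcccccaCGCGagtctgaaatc
Ring1, chr17:34024681-34024930, minus strand: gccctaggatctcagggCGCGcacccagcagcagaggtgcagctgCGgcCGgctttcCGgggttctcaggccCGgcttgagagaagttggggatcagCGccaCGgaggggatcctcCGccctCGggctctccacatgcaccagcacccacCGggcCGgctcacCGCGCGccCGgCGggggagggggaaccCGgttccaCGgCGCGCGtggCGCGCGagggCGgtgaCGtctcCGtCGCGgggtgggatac
Ezh2, chr6:47595031-47595280, minus strand: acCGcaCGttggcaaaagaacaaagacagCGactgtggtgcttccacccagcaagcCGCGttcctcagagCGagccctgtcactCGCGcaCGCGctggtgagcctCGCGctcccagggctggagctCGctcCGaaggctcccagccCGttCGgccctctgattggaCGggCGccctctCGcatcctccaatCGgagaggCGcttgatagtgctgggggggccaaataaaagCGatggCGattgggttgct
Ezh1, chr11:101226464-101226713, minus strand: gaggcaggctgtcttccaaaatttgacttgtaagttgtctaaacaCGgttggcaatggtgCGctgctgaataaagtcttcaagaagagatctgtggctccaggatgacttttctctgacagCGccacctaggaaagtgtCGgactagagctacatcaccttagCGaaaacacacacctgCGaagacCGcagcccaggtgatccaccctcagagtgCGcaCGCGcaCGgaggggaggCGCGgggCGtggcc
Of the 9 members, 8 had an entry in that set, Cbx2 being the other. The Cbx7 window (79932647 to 79932896) lay wholly inside the span of its gene (79915804 to 79971143). The 8 windows held 12 (Eed) to 37 (Suz12) CG dinucleotides and 54.4% to 73.6% GC, against medians of 6 and 52.4% over all 32851 windows. Eed, at 54.4%, and Ezh1, at 55.2%, lay near the median GC content. Suz12, with the lowest p65-null level relative to wild-type among the measured members, and Ring1, with the highest, had the same promoter GC content, 73.6%. Motifs were searched on both strands by exact letters. The letters TTTNGCGC (for E2F) and AAGATGGC (for YY1) were found in 0 of the 8 windows, and in 1.13% and 1.56% of all windows. Other spellings of these sites were not searched, such as TTTCCCGC, which the Suz12 window holds, so absence of E2F sites is not shown. The NF-kB consensus was matched in 1 of the 8, that of Ring1, from position -143 relative to the start, and in 7.25% of all windows. The letters GGGGCGGGG (SP1) were found in 1 of the 8, that of Bmi1, and in 10.4% of all windows.

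The p65-null library held 15441394 fragments and the wild-type library 20794476. Levels are normalised CPM, fragment counts scaled to effective library size with TMM factors, and the 12135 genes that averaged at least 1 CPM were taken as measured. Rela was at 13.1 normalised CPM in the p65-null and 90.5 in the wild-type library. All 10 fibroblast markers were found, with summed levels of 28230 and 13606 normalised CPM in p65-null and wild-type cells, but they did not move together: S100a4 had a log2 ratio of 3.64, the collagen genes Col1a1 and Col1a2 of 1.11 and 1.38, Pdgfrb of -0.41 and Thy1 of -3.10. The summed epithelial, leukocyte, endothelial and pluripotent lists reached at most 9.51 normalised CPM in p65-null and 20.6 in wild-type cells. Among their defining markers, Ptprc had 0 and 2 fragments, Cdh5 0 and 1, and Epcam 1 and 0 in the p65-null and wild-type libraries. Other markers of these lists were detected, Cd14 with 66.5 and 361 fragments, Cd68 with 61.5 and 29, Csf1r with 16 and 44, Kdr with 29 and 69, Nanog with 36.5 and 19.5, Krt18 with 23 and 0 and Cdh1 with 11 and 0 in p65-null and wild-type cells, and their part in the results was not tested. Xist counted 2 fragments in p65-null and 956 in wild-type cells, and the Y-linked Kdm5d 207 and 0, so genotype and embryo of origin cannot be told apart.

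Among the members, Suz12 and Bmi1 were at least 2-fold lower in p65-null cells, Ring1 was at least 2-fold higher, and the other 5 measured members lay within 2-fold. Cbx7 fell under the expression minimum. Among all measured genes, 13.7% lay at least 2-fold lower and 12.2% lay at least 2-fold higher in p65-null cells, and 2 and 1 of 8 members are counts too small to set apart from that background. In bulk RNA, fewer cells of a kind and less RNA per cell cannot be told apart. The 8 log2 ratios of p65-null over wild-type ran from -1.81 to 1.17 with a median of -0.05, beside a median of -0.03 over all measured genes; under upper quartile scaling these medians were 0.063 and 0.086. The counting interval lay off 0 for all 8 members, 4 below and 4 above, and for 79.3% of measured genes, 41.2% below and 38.1% above.

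**Figure D1:**
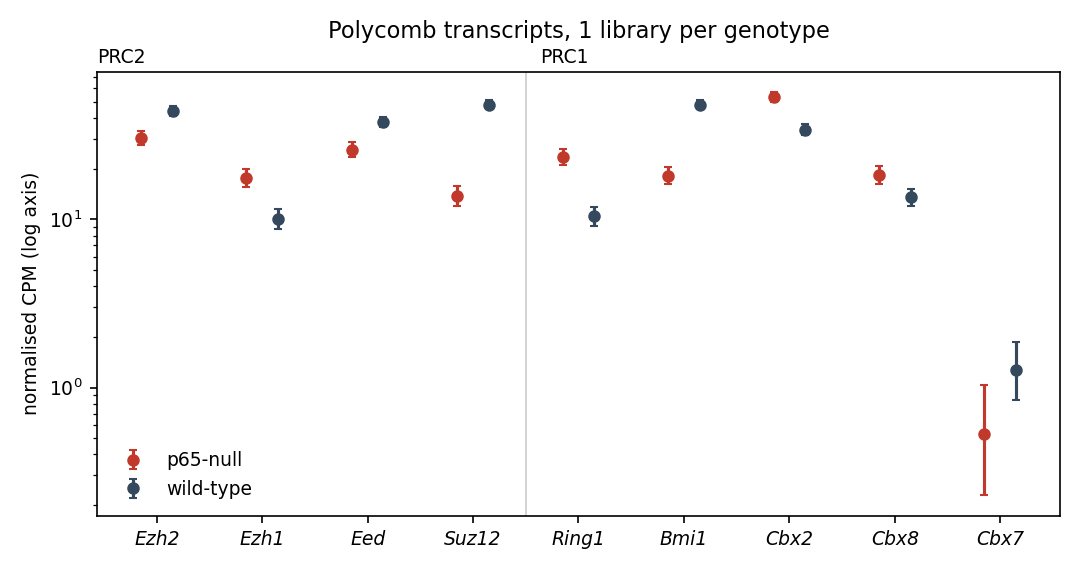
Normalised CPM (log axis) of the 9 Polycomb members in the p65-null (red) and wild-type (blue) library, with 95% Poisson intervals that cover counting error only; PRC2 members stand left of the line and PRC1 members right of it. Suz12 and Bmi1 lie well apart with p65-null below wild-type, Ring1 with p65-null above, and Cbx7 sits near 1 CPM with wide intervals.

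PRC2 shifted in its subunits in opposite directions. Ezh2, the methyltransferase prevalent in dividing cells, was at 30.4 normalised CPM in p65-null and 44.0 in wild-type cells (461 and 933.5 fragments). It was thus lower in p65-null cells, 1.45-fold (95% counting interval 1.29 to 1.62). Ezh1, the related enzyme known for its weaker activity and its presence in resting cells, was at 17.7 normalised CPM in p65-null and 10.02 in wild-type cells (268 and 212.5 fragments). It was 1.76-fold higher in p65-null cells (1.47 to 2.12).

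Taken as a pair, the enzymes were less unequal in p65-null cells. Per transcript length, Ezh2 made up 72.1% of the Ezh1 and Ezh2 signal in p65-null cells and 86.9% in wild-type cells. The ratio of Ezh2 to Ezh1 was therefore 2.59 in p65-null and 6.61 in wild-type cells, 2.55-fold lower in p65-null cells (exact conditional interval 2.06 to 3.18). This quotient does not depend on how library sizes are scaled. After a correction for the GC content and length of the transcripts it was 1.89-fold.

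Eed, which binds trimethylated H3 and stimulates the enzyme, was at 25.9 normalised CPM in p65-null and 37.8 in wild-type cells (393 and 800.5 fragments). Its 1.46-fold lower level in p65-null cells (1.29 to 1.65) was close in size to that of Ezh2, with overlapping intervals. Suz12, the scaffold on which the complex assembles, was at 13.7 normalised CPM in p65-null and 48.1 in wild-type cells (208 and 1020 fragments). It lay farther down than any other measured member, 3.50-fold lower in p65-null cells (3.02 to 4.09), and 4.48% of measured genes had a lower ratio. Suz12 fell 2.41-fold relative to Eed (1.98 to 2.93), or 1.46-fold after the GC and length correction.

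The order of the PRC2 members by level per transcript length changed accordingly. In p65-null cells, Eed came first at 12.6 FPKM (fragments scaled to library size and per kilobase of transcript), then Ezh2 at 10.9, Ezh1 at 4.22 and Suz12 at 3.14. In wild-type cells Eed was at 18.3 FPKM, Ezh2 at 15.8, Suz12 at 11.0 and Ezh1 at 2.39. Suz12 thus stood last of the 4 in p65-null cells but ahead of Ezh1 in wild-type cells.

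In PRC1, the catalytic partners also lay on opposite sides. Ring1, a ubiquitin ligase, was at 23.5 normalised CPM in p65-null and 10.4 in wild-type cells (356.5 and 221.5 fragments). It was 2.25-fold higher in p65-null cells, with an interval from 1.90 to 2.68 that reached below 2-fold. Bmi1, its Pcgf partner, was at 18.2 normalised CPM in p65-null and 48.0 in wild-type cells (276 and 1017.5 fragments). It was 2.63-fold lower in p65-null cells (2.30 to 3.02).

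Before any correction for base composition, their closest relatives did not follow them. Rnf2, the other ligase, was at 21.3 normalised CPM in both libraries, with a log2 ratio of 0.00 (-0.21 to 0.21). Pcgf2, the paralogue of Bmi1 also known as Mel18, was at 12.5 normalised CPM in p65-null and 9.27 in wild-type cells. Per transcript length, Ring1 made up 63.2% of the ligase pair in p65-null and 43.3% in wild-type cells, and the ratio of Ring1 to Rnf2 was 2.25-fold higher in p65-null cells (1.79 to 2.82). Bmi1 made up 41.5% of the Bmi1 and Pcgf2 signal in p65-null and 71.7% in wild-type cells, and the ratio was 3.56-fold lower in p65-null cells (2.79 to 4.58). In both pairs the more abundant paralogue differed between the cultures. These balances moved with the GC and length correction, after which Rnf2 was at a log2 ratio of 0.87 and Pcgf2 at 0.00. With it the log2 quotient of Bmi1 to Pcgf2 was -0.48 and that of Ring1 to Rnf2 was -0.19, on the other side of 0.

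**Figure D2:**
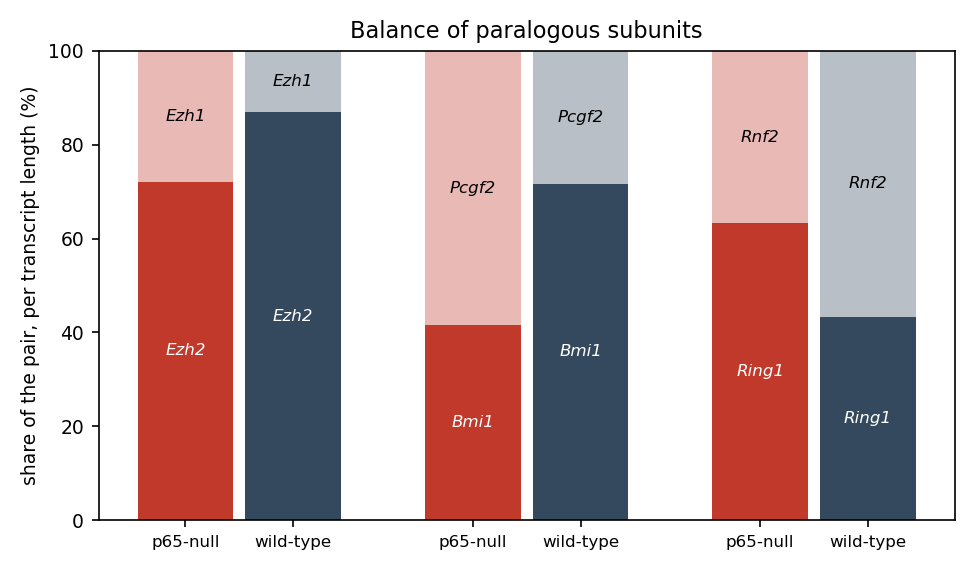
Share of each paralogue in its pair (%), computed per transcript length and without correction for GC content, in p65-null (red) and wild-type (blue) cells; the named member is the dark part and its relative the pale part. Ezh2 made up 72.1% against 86.9%, Bmi1 41.5% against 71.7% and Ring1 63.2% against 43.3%.

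The Cbx members were higher in p65-null cells where they were measured. Cbx2, a chromobox subunit able to compact chromatin and needed for male sex determination in mice, was at 53.5 normalised CPM in p65-null and 34.2 in wild-type cells (811 and 724.5 fragments). It was 1.57-fold higher in p65-null cells (1.42 to 1.73). Cbx8 was at 18.4 normalised CPM in p65-null and 13.6 in wild-type cells (278 and 288 fragments), 1.35-fold higher (1.14 to 1.60). Cbx7, a chromobox subunit known in mouse fibroblasts for repressing Cdkn2a and extending lifespan, counted 8 fragments in p65-null and 27 in wild-type cells, or 0.528 and 1.27 normalised CPM. Its 2.41-fold lower value in p65-null cells carried an interval from 1.07 to 6.14. Cbx7 overlaps Apobec3, which had 634.5 fragments in p65-null and 322 in wild-type cells, and the sources used here do not say whether reads were counted by strand.

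Set beside Cbx6, a further canonical chromobox gene that was higher in p65-null cells with a log2 ratio of 0.75 (0.68 to 0.83), the order of these 4 genes was the same in both cultures, while the share of Cbx7 was lower in p65-null cells. Per transcript length, Cbx6 made up 65.9% of their sum in p65-null and 62.7% in wild-type cells, and Cbx2 made up 24.7% in p65-null and 25.3% in wild-type cells. Cbx8 made up 9.02% in p65-null and 10.7% in wild-type cells. Cbx7 made up 0.321% in p65-null and 1.24% in wild-type cells, so it was the rarest of the 4 in either culture. Each gene relative to the other 3, p65-null over wild-type, gave a quotient of 1.14 for Cbx6 (1.03 to 1.26), 0.818 for Cbx8 (0.687 to 0.974) and 0.253 for Cbx7 (0.0993 to 0.574), each interval lying off 1. For Cbx2 it was 0.953, with an interval of 0.852 to 1.07 that held 1.

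**Figure D3:**
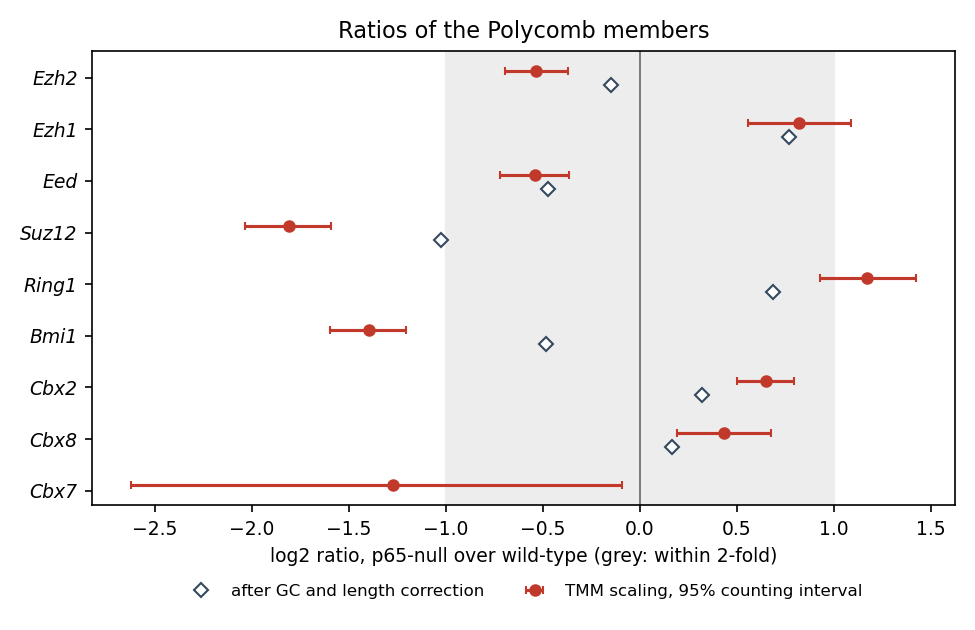
Log2 ratio of p65-null over wild-type for the 9 members with 95% counting intervals (red), and the same after correction for transcript GC content and length (open diamonds); the grey band marks less than 2-fold. Every measured member moved towards 0 under the correction, and Suz12 at -1.03 was the one left past 2-fold.

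The members' ratios ran with the GC content of their transcripts. Bmi1 and Suz12, the lowest, had the least GC, 40.2% and 41.6%, and Ring1, the highest, had the most, 60.7%. Ezh2 stood at 44.4%, Eed at 47.8%, Ezh1 at 51.1%, Cbx8 at 54.9% and Cbx2 at 57.6%. Spearman's correlation over the 8 measured members was 0.88, a description of points that share the same pair of libraries. Over all 12059 measured genes with a known transcript it was 0.43. After a correction for GC content and length it was -0.025 over all genes and 0.81 over the members. Of measured genes with under 45% GC, 2107 of 2593 had a lower level in p65-null cells, with a median log2 ratio of -0.69, while those of 55% GC or more had a median of 0.33. Whether GC content plays a part in the members' differences was not tested.

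After a loess correction for GC content and length over all genes, all 8 measured members kept their direction and shrank. The log2 ratio of Suz12 was -1.03 after the correction and -1.81 before it, the fitted value for a transcript of its composition being -0.81. Bmi1 was at -0.48, Eed at -0.47 and Ezh2 at -0.15. Ezh1 stayed at 0.77, little changed from 0.82, and Ring1 was at 0.69, Cbx2 at 0.32 and Cbx8 at 0.16. Thus 1 member was at least 2-fold lower and 0 were at least 2-fold higher, where 9.17% and 11.2% of all genes were so after the correction.

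**Figure D4:**
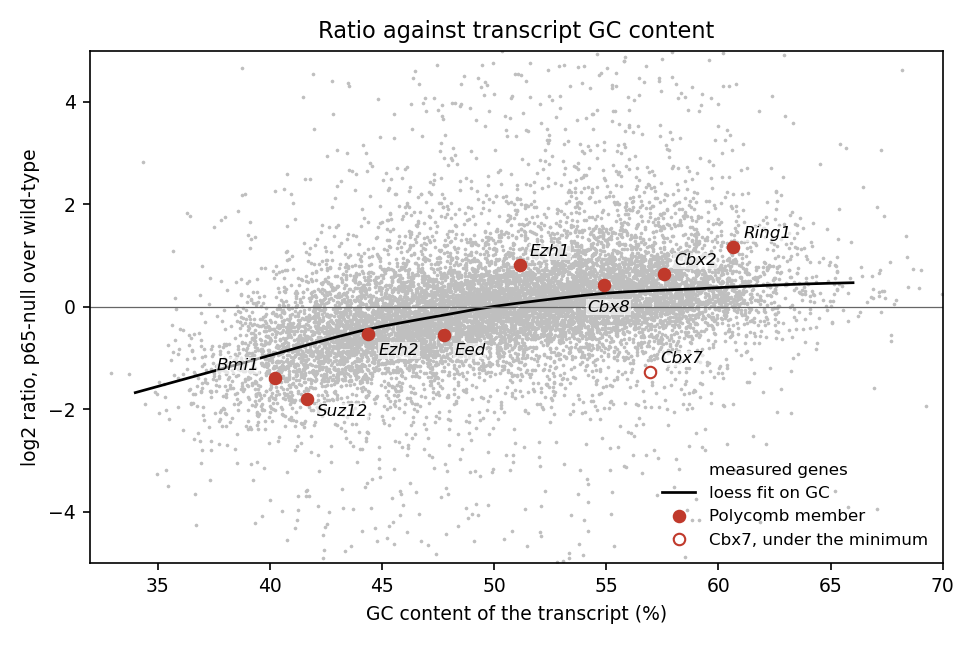
Log2 ratio of p65-null over wild-type against transcript GC content (%), for measured genes (grey; the few beyond a log2 ratio of 5 either way are not drawn) and the 9 members (red; Cbx7 open, under the expression minimum), with the loess fit on GC content (black). Bmi1 and Suz12 lie below the curve at its low-GC end, and Ezh1 and Ring1 above it.

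Position along the genome was shared by some members (GRCm38, also called mm10). Cbx2 (chromosome 11, 119023019 to 119031275) and Cbx8 (119036303 to 119040913) lie 5028 bases apart, and their log2 ratios were 0.65 and 0.43. Ring1 (chromosome 17, 34020792 to 34024680) lies at the edge of the major histocompatibility complex between H2-K1, a class I antigen gene at 1.55, and H2-Ke6, a steroid dehydrogenase gene at 1.45. Past H2-Ke6, the zinc transporter gene Slc39a7 was at -0.12.

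Bmi1 differed from the gene beside it. Commd3 ends 787 bases before Bmi1 starts (chromosome 2, 18677018 to 18686629) and counted 930 fragments in p65-null and 571 in wild-type cells, a log2 ratio of 1.19 (1.17 after correction) beside -1.40 for Bmi1. On the other side, Pip4k2a was at -1.39. Suz12 (chromosome 11, 79993106 to 80034123) stood among neighbours that were also lower in p65-null cells but by less than 2-fold, Utp6 at -0.52 and Crlf3 at -0.94. Ezh2 (chromosome 6, 47530274 to 47595270) overlaps the non-coding F830010H11Rik at its start and Cbx2 overlaps Gm35829, neither of which was analysed here.

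The rest of the Polycomb machinery mostly lay within 2-fold, 40 of 48 genes beside 8993 of all 12135 measured genes. Of 49 further genes found, 48 were measured. Of these, 7 were at least 2-fold lower in p65-null cells, a share near the 13.7% of all genes, and 1 was at least 2-fold higher, where 12.2% of all genes were. Their median log2 ratio was -0.28, or -0.16 under upper quartile scaling. After the GC and length correction, 2 were at least 2-fold lower and 2 at least 2-fold higher, beside 9.17% and 11.2% of all genes. Of the 17 machinery genes, members included, with under 45% GC, 16 were below 0 and 6 at least 2-fold lower, where of all 2593 measured genes with so little GC 2107 were below 0 and 883 at least 2-fold lower.

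Among other PRC2 genes, 2 of 10 were at least 2-fold lower and 0 higher, beside 13.7% and 12.2% of all measured genes. Mtf2, which recruits PRC2 to CpG islands, was at 10.8 normalised CPM in p65-null and 31.0 in wild-type cells, a log2 ratio of -1.53, or -0.34 after correction. Lcorl, an accessory subunit gene, was at -1.70 (-0.26 corrected). The histone-binding subunit genes Rbbp4 and Rbbp7, which also serve other complexes, were at -0.09 and -0.49. Jarid2 and Aebp2, of the alternative PRC2 form, were at -0.44 and -0.46.

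In PRC1, Phc2 was the 1 of 8 other canonical genes past 2-fold, where 25.9% of all measured genes were. Phc2, which lets PRC1 complexes cluster, was at 111 normalised CPM in p65-null and 226 in wild-type cells. Its log2 ratio was -1.03 (-1.11 to -0.95), and at 60.4% GC it lay farther down after correction, at -1.49. Of 16 variant PRC1 genes, 3 were at least 2-fold lower and 0 higher, beside 13.7% and 12.2% of all measured genes. Pcgf3 was at -1.51, and Yaf2 and Rybp, related proteins that take the place of Cbx in variant PRC1, were at -1.26 and -1.23. Corrected values were -0.88, -1.03 and -0.67. In the deubiquitinase and PhoRC list of 14, Asxl3 was at -1.03 on 28 p65-null and 80 wild-type fragments, and Sfmbt2, a chromatin-binding PhoRC gene, was 2.12-fold higher in p65-null cells (1.75 to 2.58), with a corrected log2 ratio of 1.51.

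**Figure D5:**
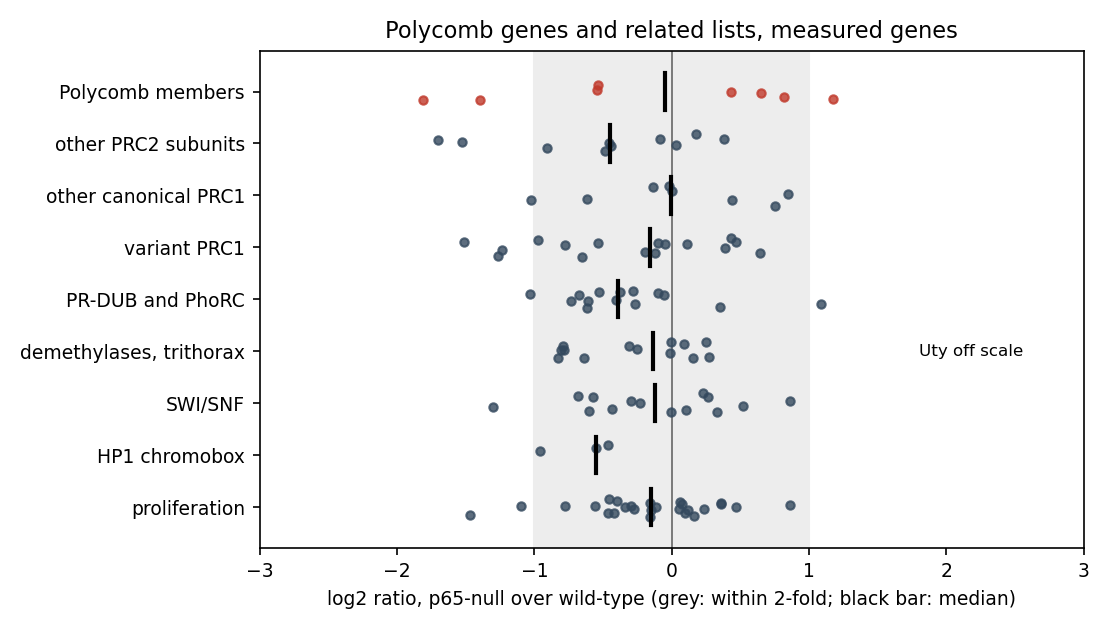
Log2 ratio of p65-null over wild-type for the measured genes of each list (points) with the list's median (black bar); the grey band marks less than 2-fold and Uty, at 6.60, lies off the scale. The Polycomb members span from -1.81 to 1.17, around a median of -0.05.

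Opposing activities and related genes mostly lay within 2-fold, as did 8993 of all 12135 measured genes. Of 14 genes for H3K27 demethylases and trithorax methyltransferases, 1, Uty, was at least 2-fold higher in p65-null cells and 0 were lower by that margin. Of all measured genes, 12.2% and 13.7% were so. The X-linked demethylase gene Kdm6a had 226 fragments in p65-null and 552.5 in wild-type cells, a log2 ratio of -0.80 (-0.07 corrected). Its Y-linked relative Uty had 69.5 in p65-null and 1 in wild-type cells, a log2 ratio of 6.60 (4.08 to 11.93). Together they reached 3.39 FPKM in p65-null and 4.40 in wild-type cells. Kdm6b, the autosomal enzyme, was at 19.0 normalised CPM in p65-null and 19.2 in wild-type cells. Among 14 SWI/SNF genes, which counter Polycomb, Pbrm1 alone was past 2-fold, at -1.30 (-0.63 corrected), where 25.9% of all measured genes were. Cbx1, Cbx3 and Cbx5, chromobox genes of HP1 and not of PRC1, were at -0.55, -0.47 and -0.96.

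Proliferation genes, given here because Ezh2 is known to be higher in dividing cells, were alike in sum. The 26 genes reached 5189 normalised CPM in p65-null and 5187 in wild-type cells, with a median log2 ratio of -0.15 (-0.01 corrected). Of them 2 were at least 2-fold lower and 0 higher, beside 13.7% and 12.2% of all measured genes. Single genes differed in both directions. Counting intervals lay below 0 for 15 of them and above 0 for 8, beside 41.2% and 38.1% of all measured genes. The genes that Polycomb is known to silence did not move one way. Cdkn2a had 3 fragments in p65-null and 1693.5 in wild-type cells, and Cdkn2b had 0 in p65-null and 613.5 in wild-type cells. With its 0 set to the floor of 3 fragments, Cdkn2b was 146-fold lower in p65-null cells, and its counting interval began at 118-fold. Of 22 measured Hox genes, 9 lay past 2-fold upwards and 12 past 2-fold downwards in p65-null cells, beside 12.2% and 13.7% of all measured genes. Between the Hoxb and Hoxd genes the direction went by cluster. Of 39 listed Hox genes 29 were found, and no Hoxc gene was measured. The measured Hoxb genes had 0 or 1 fragments in p65-null cells and the measured Hoxd genes 0 in wild-type cells, while Hoxa genes lay on both sides.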

How the data were processed

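RNA of 1 p65-null and 1 wild-type MEF culture was sequenced on an Illumina HiSeq, per the labels. Per the submitters' processing notes, HOMER, edgeR, STAR 2.4 and bcl2fastq 2.16 were used with mm10, in roles not given; neither is the rule of counting or its use of strand. The deposited table is a scaled signal: both columns share 1 total, and the values of 2000 or less were whole multiples of 1 step (100% within 0.0055 units). Dividing by the step gave reads, and 2 steps were taken as 1 fragment because even multiples were in excess, 75.7% in p65-null and 72.8% in wild-type of values of 1 to 20 steps. With 1 library per genotype there was no residual degree of freedom for a count test.

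RefSeq transcripts were matched to symbols and GRCm38 coordinates (16743 through RefSeq, 83 through GENCODE M21, 55 unmatched). Factors were computed by TMM in edgeR 4.0.16 (0.981 for p65-null, 1.02 for wild-type). Ratios have exact Clopper-Pearson intervals at 95%, ratios of paralogues conditional exact intervals on rounded fragments, and where a library had 0 fragments a floor of 3 was used. GC content and length came from the GENCODE transcript of the same accession where there was one. Otherwise the longest transcript of the gene was used, with protein-coding ones first. The loess correction had a span of 0.3. Scripts were tested on simulated data. Some results are not reported here.

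The members, lists and tests were chosen with earlier results of these data known. All members and, in each other Polycomb-related list, the genes past 2-fold were named, with set paralogues, Rela, Cdkn2a and Cdkn2b. Not all genes past 2-fold in the proliferation, Hox and marker lists were named. Neighbouring genes, cell markers and further list members were named after their values were seen. Alternatives were scaling by upper quartile factors, DESeq2 1.42.0 size factors or total counts, ribosomal protein scaling, the 10 most abundant genes left out, equal depth, the GC and length correction, a prior count of 2, no minimum or 5 CPM, the whole interval past 2-fold, and the mean for the median.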

Additional observations from a re-analysis of the deposited data

How the results depend on the processing

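All 8 measured members kept their direction under each of the 10 alternatives that gave them a value. For no minimum and 5 CPM this was fixed in advance, because they change only which genes are kept. Under ribosomal protein scaling Cbx8 was at a log2 ratio of only 0.025, beside 0.43 with TMM. Upper quartile factors shifted every log2 ratio by 0.11 and ribosomal protein scaling by -0.41, so that 14.2% and 7.61% of measured genes were at least 2-fold higher in p65-null cells and 11.7% and 24.8% at least 2-fold lower, beside 12.2% and 13.7% with TMM. At least 2-fold higher members numbered 0 under ribosomal protein scaling, 0 after the GC and length correction and 0 when the whole interval had to pass 2-fold, in place of 1. Lower members numbered 1 after the correction and 3 with no minimum, where Cbx7 is added, in place of 2. The members' median of -0.05 was 0.063 with upper quartile factors, -0.46 with ribosomal protein scaling, -0.53 with no minimum, which adds Cbx7, and -0.15 as a mean.

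In the other Polycomb machinery, ribosomal protein scaling gave 0 higher and 16 lower genes and a median of -0.68, the correction 2 higher and 2 lower, and upper quartile factors a median of -0.16. After the correction the log2 quotients were -0.92 for Ezh2 to Ezh1 (-1.35 without), -0.48 for Bmi1 to Pcgf2 (-1.83) and -0.19 for Ring1 to Rnf2 (1.17), which reversed; the cause was not tested. DESeq2 size factors, total counts, equal depth, the prior count and leaving out the 10 most abundant genes moved no member beyond its counting interval, no median by over 0.1 and no count by over 1.5 times. No paired analysis was possible because each genotype had 1 library, and no library could be left out. Depth limits Cbx7, with 8 and 27 fragments in p65-null and wild-type cells, more than any other member.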
